A study of Mus musculus with 7 samples.

Results

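The MYC and MAX network is a group of transcription factors, of which those that pair with MAX compete for 1 partner and for 1 DNA element. Its 10 genes described here were taken by name: Myc, Mycn, Max, Mxi1, Mxd4, Mnt, Mga, Mlx, Mlxip and Tfap4. Each had a single probe on the array that the platform annotation gives to that gene alone, so no choice between probes was needed. They are 10 of 21515 measured genes, and all 10 were among the 16136 genes bright enough to be tested. The cells were germinal centre B cells, sorted from the spleen by the surface markers B220, CD95 and GL7. There was 1 array for each of 3 samples from RRas2-deficient mice and 4 samples from wild-type (WT) mice. Every mouse, of either genotype, had received sheep red blood cells 7 days earlier, an immunogen that drives germinal centres with T cell help. The labels give neither the way Rras2 was disrupted nor the strain, age or sex of the animals, and they do not say whether cells of several mice were pooled. They call the samples biological replicates, and the p-values below set each difference against the spread between these samples. In the main model that spread takes in the array sets described below.

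MYC, the product of Myc, binds DNA as a pair with MAX, the product of Max, at the E-box CACGTG, and there switches on genes of growth, ribosome assembly and metabolism. The MXD proteins, among them those of Mxi1 and Mxd4, as well as MNT and MGA take MAX away from MYC and repress through the same sites. MLX pairs with MondoA, the product of Mlxip, in a parallel arm that reads glucose and drives Txnip, and it can also pair with some MXD proteins and with MNT. In germinal centres Myc is switched on briefly in B cells that have won T cell help, and AP4, the product of Tfap4, is a MYC target that sustains their division afterwards. R-Ras2, the small GTPase encoded by Rras2, lies upstream of growth signalling in lymphocytes.

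The deposited values were log2 intensities, with a median between 4.34 and 4.54 on each array. Rras2 read 6.93, 6.68 and 7.12 on the deficient arrays, against 7.13, 7.41, 8.66 and 8.39 on the WT arrays, with no overlap. The log2 difference was -0.99 ± 0.39 (SE), and its adjusted p in limma was 1.00. Rras2 thus lay well above the limit below which genes were not tested (3.48) on the deficient arrays too, and the labels do not tell whether its probe lies in the disrupted part of the gene. The arrays parted into 2 sets by the interquartile range of their values. It was 2.69 to 2.91 on 4 wider arrays (deficient replicates 1 and 3, WT replicates 3 and 4) and 2.37 to 2.49 on 3 narrower ones (deficient replicate 2, WT replicates 1 and 2). WT replicate 3 also stood apart in Xist (6.61, against 9.43 to 10.29 on the other arrays) and in the mean of 3 Y-linked genes (6.39, against 3.29 to 4.56). Of the markers measured, 5 of 5 of B cells and 6 of 6 of germinal centre B cells were above the limit for dim genes of 3.48. The log2 of the summed intensity of the 10 myeloid markers was 8.05 to 8.53 on deficient arrays and 8.19 to 8.50 on WT arrays, and that of 5 T cell markers was 6.15 to 6.39 and 6.09 to 7.00.

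None of the 10 network genes passed the test between genotypes. In a limma model across all 16136 genes, RRas2-deficient minus WT with Benjamini-Hochberg adjustment, 0 of 10 passed an adjusted p of 0.05, where 2 of all genes passed (0.0124%). At an unadjusted p under 0.05 there were also 0 of 10, beside 0.818% of all genes, and the genotypes overlapped in each of the 10, where 1.08% of all genes did not overlap. By sign 4 network genes were higher and 6 lower in the deficient cells, with a median log2 difference of -0.0036, and over all tested genes that median was 0.0049. The 10 differences ran from -0.25 (Mlx) to 0.25 (Mxi1).

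Max, the shared partner, had log2 intensities of 8.24, 7.77 and 8.02 on the deficient arrays, against 7.73, 7.86, 8.57 and 8.43 on the WT arrays. The 2 wider WT arrays were the highest and the genotypes overlapped. The means were 8.01 ± 0.24 (SD, n = 3) and 8.15 ± 0.41 (SD, n = 4), a log2 difference of -0.13 ± 0.24 (SE) with a 95% interval of -0.71 to 0.44.

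Myc itself read 7.43, 8.85 and 7.79 on the deficient arrays, against 8.25, 8.54, 7.56 and 7.75 on the WT arrays. The highest and the lowest of the 7 values both came from deficient cells, so the WT range lay inside the deficient one. The means were 8.02 ± 0.74 (SD, n = 3) and 8.03 ± 0.45 (SD, n = 4), with a log2 difference of -0.00055 ± 0.39 (SE). The 95% interval of -0.92 to 0.92 holds changes of almost 1 log2 unit in either direction, so these arrays do not show that Myc is alike in the 2 genotypes. Because the samples are bulk RNA, fewer Myc-expressing cells and less Myc RNA in each cell cannot be told apart.

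Mycn, the relative of Myc known from neural and early lymphoid cells, read 4.30, 4.41 and 4.32 on the deficient arrays, against 4.53, 4.38, 4.11 and 4.10 on the WT arrays. These values lay not far above the limit for dim genes, and the deficient values lay within the WT range. The log2 difference was 0.07 ± 0.13 (SE), with a 95% interval of -0.24 to 0.37.

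**Figure D1:**
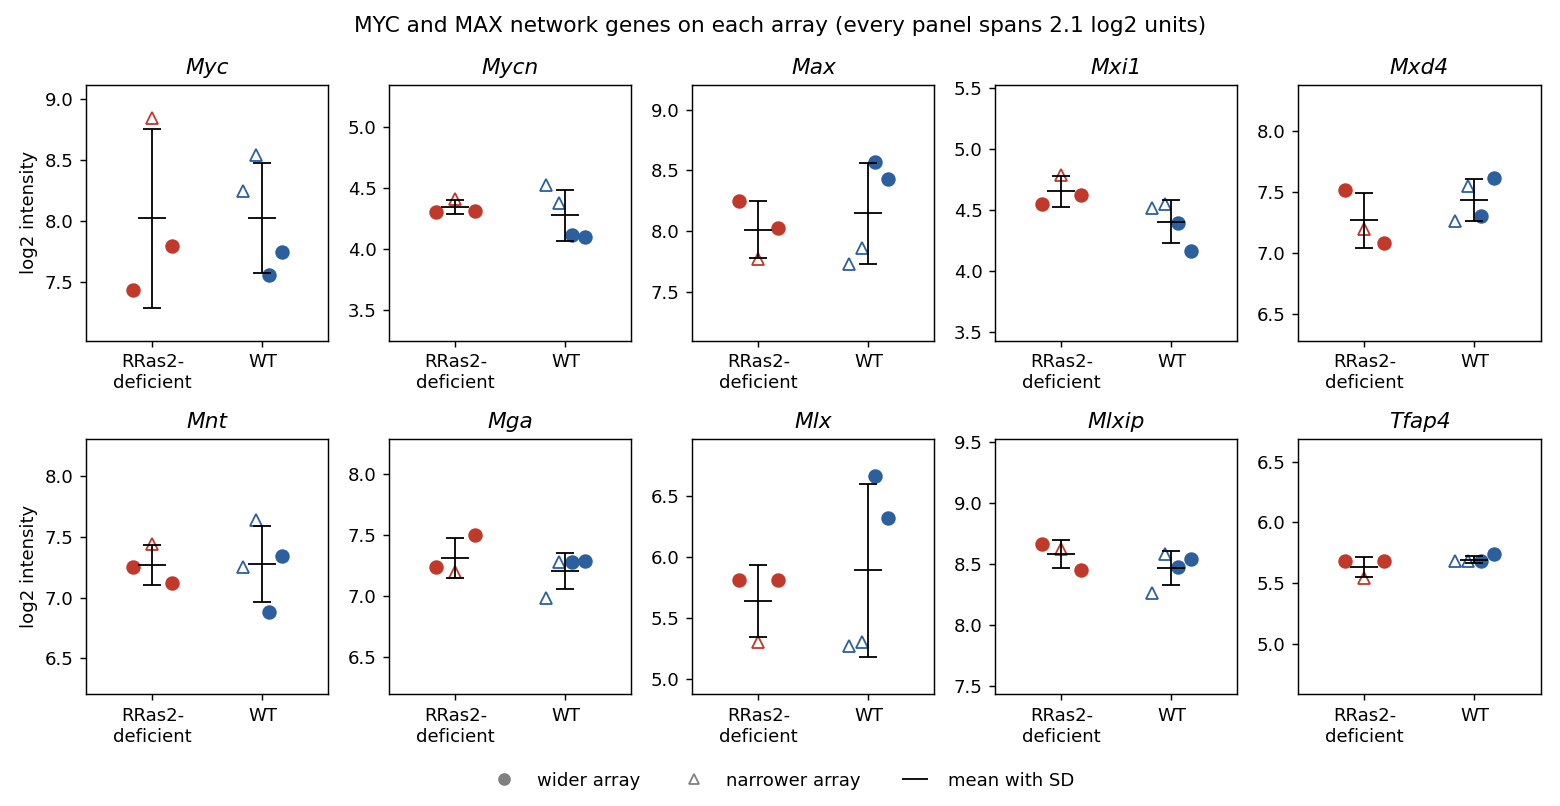
Log2 intensity (vertical axis) of each of the 10 network genes on every array, with RRas2-deficient arrays in red at the left of each panel and WT arrays in blue at the right. Filled circles are wider arrays, open triangles are narrower arrays, and the black bar is the mean with its SD (n = 3 deficient, n = 4 WT). The genotypes overlap in every panel, and in Myc the triangles lie above the circles in both genotypes.

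Among the antagonists, Mxi1 came nearest to parting the genotypes. It encodes MXI1, an MXD protein that brings the SIN3 corepressor to E-boxes. It read 4.55, 4.79 and 4.62 on the deficient arrays, against 4.52, 4.55, 4.39 and 4.16 on the WT arrays. The lowest deficient value (replicate 1) and the highest WT value (replicate 2) were the same number, so the groups touched and did not separate. The means were 4.65 ± 0.13 (SD, n = 3) and 4.41 ± 0.17 (SD, n = 4), a log2 difference of 0.25 ± 0.12 (SE), with a 95% interval of -0.04 to 0.54. The adjusted p of Mxi1 in limma was 1.00. When the 7 array labels were permuted in all 35 ways, the exact two-sided p was 0.143, and 0.0286 is the lowest that this design allows.

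The other antagonists had smaller differences. Mxd4, whose MXD protein marks resting and differentiating cells, read 7.52, 7.20 and 7.09 on the deficient arrays, against 7.27, 7.55, 7.31 and 7.62 on the WT arrays. Deficient replicates 2 and 3 lay under all 4 WT arrays and replicate 1 lay among them, for a log2 difference of -0.17 ± 0.15 (SE), with a 95% interval of -0.51 to 0.18. Mnt, the broadly expressed repressor that opposes MYC in dividing cells, read 7.25, 7.44 and 7.12 on the deficient arrays, against 7.25, 7.63, 6.88 and 7.34 on the WT arrays. The deficient values lay inside the WT range, with a log2 difference of -0.0067 ± 0.18 (SE) and a 95% interval of -0.45 to 0.43. Mga encodes a very large protein with a T-box beside its MAX-binding domain, the scaffold of the Polycomb complex PRC1.6. It read 7.24, 7.19 and 7.50 on the deficient arrays, against 6.98, 7.28, 7.28 and 7.29 on the WT arrays. Its log2 difference was 0.10 ± 0.12 (SE), with a 95% interval of -0.19 to 0.40.

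In the parallel arm Mlx varied as widely between arrays as Myc. It read 5.81, 5.30 and 5.81 on the deficient arrays, against 5.27, 5.30, 6.66 and 6.32 on the WT arrays. WT replicates 3 and 4 stood above the other 5 arrays, and the genotypes overlapped. The means were 5.64 ± 0.30 (SD, n = 3) and 5.89 ± 0.71 (SD, n = 4), a log2 difference of -0.25 ± 0.39 (SE), with a 95% interval of -1.17 to 0.67. Without WT replicate 3 the log2 difference of Mlx was 0.0097 and that of Max was 0.0065. Mlxip, which encodes the glucose-sensing partner MondoA, read 8.67, 8.62 and 8.45 on the deficient arrays, against 8.26, 8.58, 8.47 and 8.54 on the WT arrays. Its log2 difference was 0.11 ± 0.11 (SE), with a 95% interval of -0.15 to 0.38.

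Tfap4 varied least of the 10 genes, with 0.20 log2 units between its highest and lowest array. It read 5.68, 5.54 and 5.68 on the deficient arrays, against 5.68, 5.68, 5.68 and 5.74 on the WT arrays. The same value, to 8 digits, stood on 5 of the 7 arrays. Such a repeated value occurred in 4 of the 10 genes, the others being Mxi1, Mga and Mlx. The log2 difference of Tfap4 was -0.06 ± 0.08 (SE), with a 95% interval of -0.24 to 0.12.

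**Figure D2:**
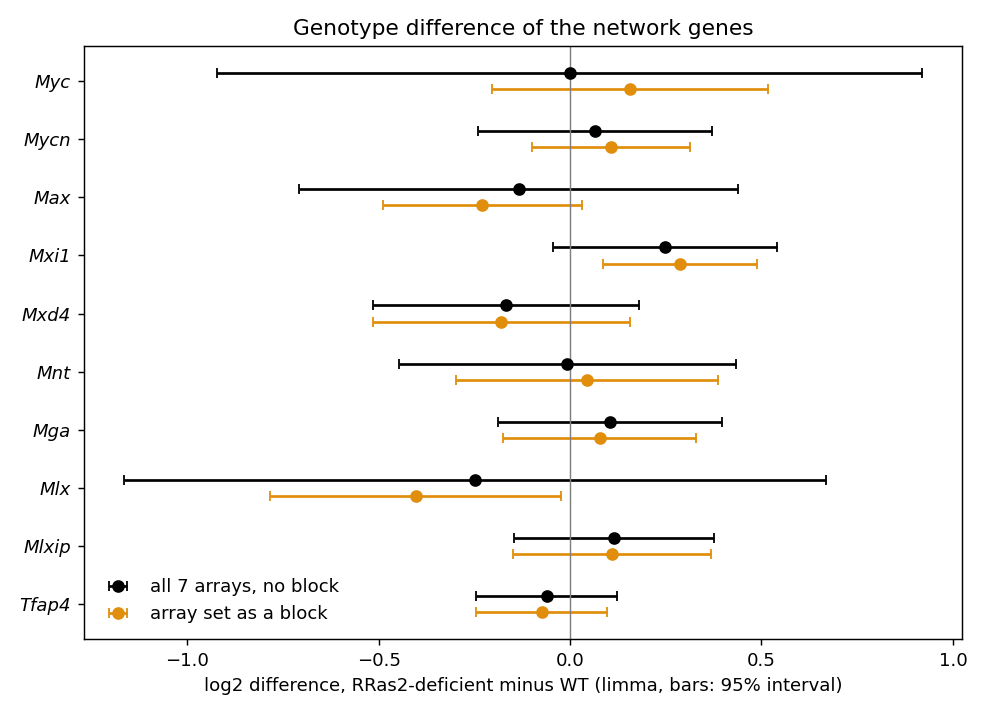
Log2 difference of each network gene, RRas2-deficient minus WT, with its 95% interval from limma (n = 3 and 4 arrays). Black points are the model without a block and orange points hold the array set as a block. Each black interval crosses 0, and the orange intervals of Mxi1 and Mlx do not.

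Several network genes differed more between the array sets than between the genotypes. On the wider arrays Myc lay at 7.43 to 7.79, under the 8.25 to 8.85 of the narrower arrays, a difference of -0.91 between the set means. The sign was the same within each genotype, at -1.23 in deficient cells and -0.74 in WT cells. Mycn was also lower on every wider array (4.10 to 4.32) than on any narrower one (4.38 to 4.53). Max was higher on the wider arrays, with 8.02 to 8.57, than on the narrower ones, with 7.73 to 7.86. So was Mlx, at 5.81 to 6.66 on the wider arrays and 5.27 to 5.30 on the narrower ones. Thus 2 of 10 network genes were lower on the wider arrays without overlap and 2 were higher. Over all tested genes 13.6% were lower and 26.9% higher, so the counts for the network were near the background. The sets were parted by a property of the same values, so these levels are a description with no test. The sign of the set difference was the same in both genotypes for 9 of the 10 genes, the exception being Mlxip. The germinal centre B cell markers were higher on each wider array in 6 of 6 cases, with a mean log2 intensity of 9.44 to 9.96 on the wider and 8.29 to 8.40 on the narrower arrays. Of 5 B cell markers 4 were also higher on each wider array, with a mean of 10.86 to 11.08 on the wider and 10.40 to 10.54 on the narrower arrays. Of 5 plasma cell markers 2 were higher and 1 lower on each wider array, and of 5 T cell markers 2 were lower. The part of these markers in the levels of Myc, Mycn, Max and Mlx was not tested.

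**Figure D3:**
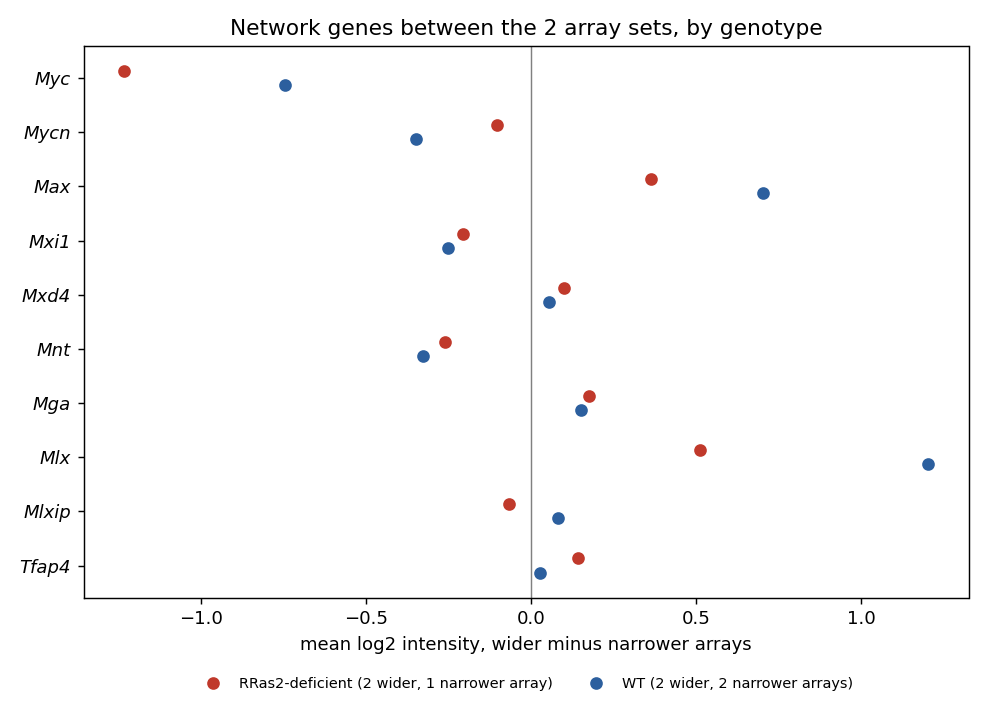
Mean log2 intensity on wider minus narrower arrays (horizontal axis) for each network gene, within RRas2-deficient cells (red, 2 wider and 1 narrower array) and within WT cells (blue, 2 and 2 arrays). Myc lies left of 0 in both genotypes (-1.23 and -0.74), and Max (0.36 and 0.70) and Mlx (0.51 and 1.20) lie right of it.

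With the array set held as a block, a choice made after the sets were known, 0 of 10 network genes passed the adjusted threshold and 2 of all genes did (0.0124%). The difference of Mxi1 was then 0.29 ± 0.09 (SE), with a 95% interval of 0.09 to 0.49 and an adjusted p in limma of 0.380. Its within-set differences were 0.26 on the narrower and 0.31 on the wider arrays. That of Mlx was -0.40 ± 0.16 (SE), with a 95% interval of -0.78 to -0.02 and an adjusted p in limma of 0.472. Its within-set differences were 0.01 on the narrower and -0.68 on the wider arrays. These 2 of 10 genes had an unadjusted p under 0.05, and so did 10.1% of all genes in that model. Max differed by -0.23 ± 0.11 (SE), with a 95% interval of -0.49 to 0.03. Myc differed by 0.16 ± 0.15 (SE), with a 95% interval of -0.20 to 0.52. Its within-set differences had opposite signs, at 0.45 on the narrower arrays, where 1 array is from deficient cells, and -0.04 on the wider ones. That contrast between the sets was not tested. For 7 of the 10 genes the within-set differences had the same sign in both sets, the exceptions being Myc, Mycn and Mlx.

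Sequence near the starts of these genes was available from RefSeq (GRCm38.p6) for 8 of the 10, as windows of 250 bases before to 50 bases after each start. The palindromic E-box CACGTG, which reads alike on both strands, stood in 4 of the 8: Max, Mxd4, Mnt and Mlx. In that table, 8.09% of its 27025 genes hold it in at least 1 window. The stretches of 60 bases around it are shown because they place the MYC and MAX element in genes of the network itself. Max and Mlx were higher on each wider array, and a link between the E-box and these levels was not tested. The E-box is in capitals, each stretch runs 5′ to 3′ on the strand of the gene, and the coordinates are those of GRCm38.p6.
Max, chr12:76962219-76962278, minus strand, E-box from position -3 of the start: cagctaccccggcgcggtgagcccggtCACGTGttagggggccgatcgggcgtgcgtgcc
Mlx, chr11:101087223-101087282, plus strand, E-box from position -40: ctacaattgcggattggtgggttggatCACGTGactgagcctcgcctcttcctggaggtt
Mnt, chr11:74830774-74830833, plus strand, E-box from position -123: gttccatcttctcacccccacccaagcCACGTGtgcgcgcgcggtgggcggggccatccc
Mxd4, chr5:34187897-34187956, minus strand, E-box from position -219: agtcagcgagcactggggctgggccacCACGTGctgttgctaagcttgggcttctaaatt

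Mnt and Mxd4 hold the same letters, and their values overlapped between the array sets. The windows of Mycn, Mga and Mlxip and the 3 windows of Mxi1 do not hold them. The related palindrome CAGCTG, which AP4 binds, was found in 1 of the 8 genes, Mga, beginning at position 23, and 18.3% of the genes in the table hold it. A match is a stretch of letters and does not show binding.

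Of the remaining MYC and MXD family genes, 3 were bright enough to be tested and 0 passed. Mxd1, the founding MXD antagonist, read 6.23, 6.55 and 6.25 on the deficient arrays, against 6.30, 6.32, 5.98 and 6.28 on the WT arrays, a log2 difference of 0.12 ± 0.13 (SE). Mxd3, the MXD gene tied to the S phase of dividing cells, averaged 6.47 ± 0.0096 (SD, n = 3) in deficient cells and 6.47 ± 0.12 (SD, n = 4) in WT cells. Mlxipl, which encodes the glucose-responsive factor ChREBP, differed by 0.14 ± 0.16 (SE). Mxd1 and Mlxipl were lower on each wider array than on any narrower one, as Myc was. Mycl read 3.34 to 3.39 on the deficient arrays and 3.37 to 3.38 on the WT arrays, under the limit for dim genes, and was not tested. Of 7 tested E-box binding factors outside the network, such as the USF and TFE families, 0 passed, with a median log2 difference of 0.03. The largest differences by p there were Mitf (0.14 ± 0.12), Tfe3 (0.11 ± 0.13), Srebf2 (-0.16 ± 0.26) and Srebf1 (0.07 ± 0.17).

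The genes that MYC is known to induce had lower means in the deficient cells in 20 of 24 cases, and 0 of 24 passed the test. Their median log2 difference was -0.17, beside 0.0049 over all tested genes. The members of lowest p were Rrs1, a ribosome assembly factor (0.45 ± 0.16, log2 difference ± SE), the D-type cyclin gene Ccnd2 (-0.58 ± 0.23), the ribosomal RNA processing gene Rrp9 (0.16 ± 0.11) and the transferrin receptor gene Tfrc (-0.49 ± 0.45). With the array set as a block 21 of 24 were lower and 0 passed, and the median was -0.32. Over all tested genes 8217 of 16136 were lower with the block. Also lower were 6 of 6 germinal centre B cell markers, 8 of 9 genes for MYC turnover and 7 of 8 for Myc transcription. Higher were 8 of 14 immediate early genes and 5 of 7 E-box binding factors outside the network. In that model 12 of the 24 were lower and 1 higher at an unadjusted p under 0.05. Of all 16136 genes 1007 were lower and 627 higher at that p, 10.1% in either direction. The median turned to 0.03 without WT replicate 3 and to 0.06 without deficient replicate 2 when no block was held. With the block it stayed between -0.41 and -0.22 whichever array was left out. The list was chosen with earlier results of these data known, and its direction is no independent evidence.

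The mean log2 intensity of these 24 genes moved against Myc between the array sets. On the deficient arrays it was 7.47, 6.89 and 7.55, while Myc read 7.43, 8.85 and 7.79. On the WT arrays it was 7.08, 7.16, 8.06 and 7.64, while Myc read 8.25, 8.54, 7.56 and 7.75. The 3 arrays with the highest Myc thus had the 3 lowest means of the induced genes, and they are the 3 narrower arrays. Of the 24 genes 14 were higher on every wider array and 1 lower, beside 26.9% and 13.6% of all tested genes. This direction was not particular to the induced genes. Also higher there were 7 of 9 genes for MYC turnover and 5 of 8 for Myc transcription, with 0 lower. Of 6 genes that MYC holds down 1 was higher and 1 lower. The mean of all tested genes was also higher on each wider array than on any narrower one. The immediate early genes, which like Myc are switched on within minutes of a stimulus, ran with Myc. Their mean over 14 genes was 6.45, 8.01 and 6.88 on the deficient arrays, against 7.65, 7.90, 6.42 and 7.20 on the WT arrays. Of these 14 genes 11 were lower on every wider array and 0 higher, beside 13.6% and 26.9% of all tested genes. The part of this class in the levels of Myc was not tested. By genotype, 11 of the 14 were lower in the deficient cells and 0 passed, with a median log2 difference of -0.22 without a block and 0.01 with it. The 4 of lowest p were Egr2 (-0.20 ± 0.15), Zfp36 (-0.24 ± 0.24), Ier2 (-0.27 ± 0.41) and Dusp1 (-0.32 ± 0.50).

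**Figure D4:**
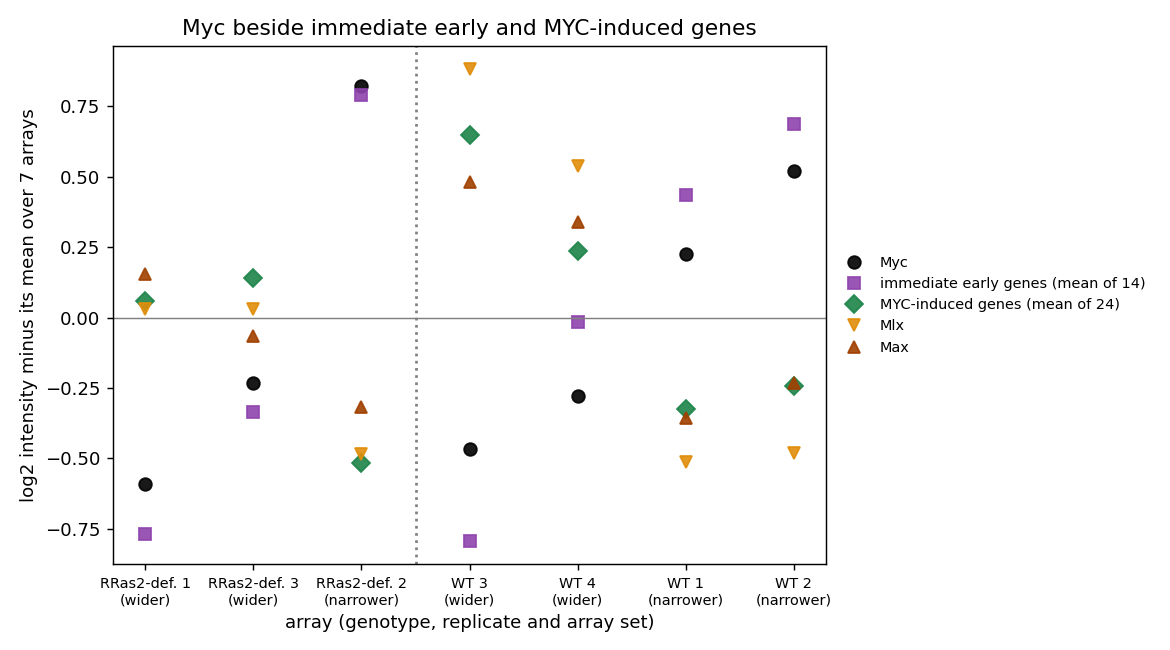
Log2 intensity minus its own mean over the 7 arrays (vertical axis) for Myc, Max, Mlx and the means of 14 immediate early and 24 MYC-induced genes, on each array (horizontal axis; deficient arrays left of the dotted line, WT arrays right of it). On the 3 narrower arrays Myc and the early genes lie above 0 and the induced genes, Max and Mlx below it.

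Cofactors and regulators of the network also held 0 genes that passed. Of 11 coactivators 8 had higher means in the deficient cells (median log2 difference 0.08), but with the array set as a block 4 were higher and 7 lower (median -0.02). Those of lowest p were the histone methylation subunit gene Wdr5 (-0.18 ± 0.14), the acetyltransferase scaffold gene Trrap (0.17 ± 0.13), the acetyltransferase gene Kat2a (0.17 ± 0.19) and the cyclin gene Ccnt1 (-0.12 ± 0.18). Among 6 corepressor genes used by MXD proteins and MNT, Suds3 (0.09 ± 0.14), Sin3b (-0.04 ± 0.08), Sin3a (-0.12 ± 0.22) and the deacetylase gene Hdac1 (-0.23 ± 0.48) had the lowest p. Of 6 further subunit genes of the MGA complex PRC1.6, 3 were higher and 3 lower, and 2 were higher and 4 lower with the block. The Polycomb gene L3mbtl2 differed by -0.22 ± 0.18 and the ubiquitin ligase gene Rnf2 by -0.33 ± 0.29, while Ring1 (0.14 ± 0.16) and Yaf2 (0.13 ± 0.19) had higher means. Of 9 genes that set the stability of MYC protein, 6 were lower, and those of lowest p were Usp36 (-0.15 ± 0.12), Gsk3b (0.20 ± 0.29), Fbxw7 (-0.08 ± 0.15) and Huwe1 (-0.04 ± 0.09).

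Among 8 genes tied to transcription of Myc, the long RNA gene Pvt1, its chromosomal neighbour, had the lowest p. Its log2 difference was 0.23 ± 0.11 (SE), with an unadjusted limma p of 0.0665 and an adjusted p of 1.00, and it was 0.22 with the array set as a block. Prdm1, which encodes the repressor BLIMP1 that shuts Myc off in plasma cells, differed by -0.27 ± 0.19, the nucleic acid binding gene Cnbp by -0.31 ± 0.25 and the NF-kB subunit gene Rel by -0.05 ± 0.13. The 5 plasma cell markers, Prdm1 among them, all had lower means in the deficient cells and 0 passed. The log2 of their summed intensity was 9.37 to 10.55 on deficient arrays and 9.87 to 11.04 on WT arrays, and their part in the other values was not tested. Of 6 genes that MYC is known to hold down, 4 were lower. They included the cell cycle inhibitor genes Cdkn1a (-0.26 ± 0.18) and Cdkn1b (-0.17 ± 0.19), while Ndrg2 (0.13 ± 0.09) and Cdkn2b (0.08 ± 0.20) had higher means. The targets of MondoA and MLX that were measured are Txnip (-0.18 ± 0.24), an inhibitor of glucose uptake, and its relative Arrdc4 (0.10 ± 0.17).

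**Figure D5:**
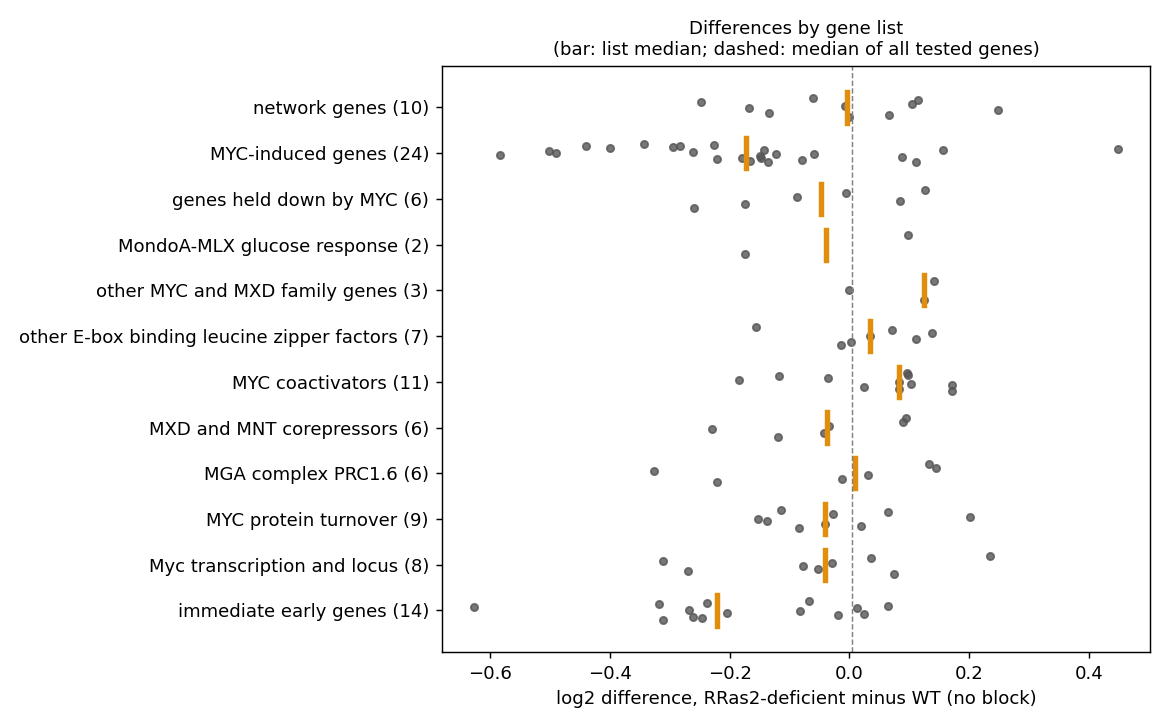
Log2 difference, RRas2-deficient minus WT without a block (horizontal axis), of each tested gene in the network and in 11 lists around it, with the number tested in brackets. Orange bars are list medians and the dashed line is the median of all tested genes. The 24 MYC-induced genes have a median of -0.17 and the 10 network genes one near 0.

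The genes closest to 3 of the network genes were sought by the root mean square distance between log2 values, each centred on its mean over the 7 arrays, and predicted genes were counted but not named. For Myc and Mxi1, 0 predicted genes lay nearer than those named. Closest to Myc were Mir3081 (0.10), Chsy3 (0.12), a chondroitin sulphate synthase gene, and Mir365-1 (0.12), beside a root mean square of 0.49 for Myc about its own mean. All 3 were lower on the wider than on the narrower arrays in their means, at 4.93 and 5.97 for Mir3081, at 5.95 and 6.85 for Chsy3 and at 3.71 and 4.46 for Mir365-1. Closest to Mxi1 were Tmem215 (0.04), Wwc2 (0.05) and the stem cell antigen gene Cd34 (0.05), beside a root mean square of 0.18 for Mxi1. Their own log2 differences between genotypes were 0.22 ± 0.12, 0.26 ± 0.15 and 0.22 ± 0.11 (SE). These genes were chosen by nearness to Mxi1 on the same 7 arrays, so such differences follow from that choice. The same holds for the set means of the genes closest to Myc. For Tfap4 the closest genes other than predicted ones were Tsc22d4 (0.02), Dnajc25 (0.02) and Pcyt1a (0.02), beside a root mean square of 0.06 for Tfap4, and 2 predicted genes lay nearer.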

How the data were processed

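Total RNA of sorted cells was labelled with biotin and hybridised to a whole-transcript array, as the labels' protocols record. What the authors deposited is 1 log2 intensity for each transcript cluster on each array, and the submitters' processing notes name RMA and oligo without versions. Genome build and background settings are not given in the sources used here.

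Genes were named from the platform annotation where a probe had 1 symbol (22225 of 25349 probes), and the brightest of several probes was kept. Dim genes, whose mean lay below percentile 25 of all genes (3.48), were not tested. The rest were fitted with limma 3.58.1 in R 4.3.3 (lmFit, eBayes, two-sided) on genotype alone, and p-values were adjusted by Benjamini-Hochberg across 16136 genes, with 0.05 as the threshold. Arrays carry no read depth, so precision is limited by how many there were.

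Alternatives were other filters, the mean over probes, further quantile normalization, median centring, a trend with a robust prior, array weights, the array set as a block, each set alone, the interquartile range as a term in the model, the replicate number as a block and leaving out each array. The cut between the array sets, 2.59, lies in the largest gap between interquartile ranges. Members, lists and alternatives were chosen with earlier results of these data known. Named are the 10 network genes, Rras2, the remaining MYC and MXD family genes, up to 4 genes of lowest p from each list, and the 3 genes nearest to each of Myc, Mxi1 and Tfap4, leaving out network genes and predicted genes.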

Additional observations from a re-analysis of the deposited data

Results flagged for a closer look

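In 2 of the 10 network genes 1 WT array lay far from the other 3, by the gap to its neighbour over the range of the 4 WT arrays, a ratio above Dixon's critical value; chance flags about 1 in 20 such groups. For Mga the ratio was 0.978: WT replicate 1 read 6.98, while the other WT arrays read 7.28, 7.28 and 7.29. For Tfap4 it was 1.00: WT replicate 4 read 5.74, while the other 3 shared the value 5.68, so the range of the group is that 1 gap. With 3 tied values any gap gives this ratio, and the rate of 1 in 20 does not hold for it.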

How the results depend on the processing

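Under no alternative did a network gene pass (lowest adjusted p 0.356), and 5 of the 10 (Mxi1, Mxd4, Mga, Mlxip, Tfap4) kept their sign in each alternative that tested them. Mycn and Mxi1 were too dim for the filter at percentile 50. Of 258 values under alternatives 235 kept their sign and 23 turned it. Fits that held the array set as a block and left out 1 array were compared with the block fit of all arrays. In that block fit Myc (0.16) and Mnt (0.043) were positive, while both were negative in the main fit. For these genes a value counted there as kept is therefore opposite in sign to the main fit. The other filters, the mean over probes and the trend with a robust prior could not move the difference of a network gene. Some of the remaining fits gave the same differences as each other, so these values are not independent checks. Myc turned to 0.016 with further quantile normalization, 0.16 with the array set as a block and 0.45 on the narrower arrays alone. Mnt turned to 0.0069, 0.043 and 0.0022 in these 3 fits, to 0.071 on the wider arrays alone and to 0.016 with the replicate number as a block. On the narrower arrays Mycn turned to -0.041 and Mlx to 0.012. Leaving out 1 array gave -0.41 to 0.29 for Myc, -0.14 to 0.11 for Mnt, -0.27 to 0.0065 for Max and -0.45 to 0.0097 for Mlx, and with the array set as a block -0.040 to 0.29 for Myc and -0.080 to 0.15 for Mnt. The median of the network genes was -0.076 with array weights and 0.061 with the array set as a block, -0.018 to 0.11 without 1 array, and -0.0033 to 0.11 without 1 array with the block.

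Over all genes 2 passed. The count was 1 with centred arrays, 5 with array weights, 0 on the narrower arrays (1351 at an unadjusted p under 0.05, with the lone deficient array assumed to vary like the WT arrays), 0 on the wider arrays (1311), 0 to 2 without 1 array (93 to 187 at an unadjusted p under 0.05 where 0 passed) and 1 to 2 without 1 array with the array set as a block. With the replicate number as a block 0 passed (176 at an unadjusted p under 0.05). WT replicate 4 is alone in its number, so the differences in that fit equalled those without this array. Deviations of same-numbered samples correlated at -0.589, 0.784 and 0.664 for replicates 1, 2 and 3. The arrays of replicate 2 were both narrower and those of replicate 3 both wider, while replicate 1 had 1 of each. Pairing by number therefore cannot be told apart from the array sets here. Deficient replicates 2 and 3 correlated best with the WT sample of their own number, and deficient replicate 1 with WT replicate 3. The causes were not tested. Intervals of Myc and Mlx reach about 1 log2 unit, which limits what 7 arrays can show.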
